A study of Mus musculus and Homo sapiens with 9 samples.

Results

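A CUT&Tag library made from mouse embryonic fibroblasts (MEFs) without a primary antibody gave a list of 4314 peaks, and these peaks were set against the 4 peak lists made from MEFs with the S9.6 antibody. The no-antibody peaks were split by the number of S9.6 lists in which they met a peak by at least 1 bp. No S9.6 list was met by 4100 of them, 1 list by 118, 2 lists by 32, 3 lists by 22 and all 4 lists by 42. The 5 MEF lists together held 44427 peaks, of which the no-antibody peaks were the members examined here.

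R-loops form when an RNA pairs with the DNA strand that encodes it and the other strand is left unpaired, and they are known to gather at CG-rich gene starts and at ribosomal RNA genes. S9.6 is a monoclonal antibody that recognises RNA-DNA hybrids. In CUT&Tag the antibody tethers a transposase, which cuts and tags the DNA nearby. A library without the primary antibody records where the transposase cuts when nothing directs it, which is known to favour open chromatin.

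The study examined how the helicase MCM8 and its partner DDX5 act on R-loops, and its 9 libraries came from MEFs and from HEK293 cells, of which the 5 MEF libraries are used here. MEFs were taken from trunks of mid-gestation embryos on a mixed C57BL/6J and ICR background and were immortalised with an SV40 lentivirus. S9.6 was used on Mcm8 wildtype (WT) cells, on Mcm8 knockout (KO) cells, on control cells of a short hairpin experiment (shControl) and on cells whose Ddx5 was knocked down by a hairpin in an adenovirus (shDdx5). In what follows, 4 values given for the S9.6 libraries stand in this order. The no-antibody MEFs are labelled wildtype, without saying which of these cultures they came from, and they still received the secondary antibody and the transposase. Each group was 1 library from an immortalised culture, so no p-value was computed. Every interval below is a 95% interval that covers counting error and nothing else, and a difference compares these libraries and not the conditions.

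Sequences at summits show the kinds of place that the groups held. They were read from the GRCm38 (mm10) reference on the plus strand, centred on the summit of the no-antibody peak. The first pair resembled ribosomal RNA genes, and capitals mark bases identical to human ribosomal DNA in an alignment. Both met all 4 S9.6 lists. The window at Lars2 is short because it lies in an untranslated part of the annotated gene.
chromosome 11 site, chr11:109011791-109011910: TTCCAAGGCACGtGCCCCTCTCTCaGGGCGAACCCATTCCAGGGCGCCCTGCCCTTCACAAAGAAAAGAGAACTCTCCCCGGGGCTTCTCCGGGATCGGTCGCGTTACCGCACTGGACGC
Lars2 exon, chr9:123461885-123461914: AGACCGTGAAAGCGGGGCCTCACGATCCTT

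The next pair resembled the mitochondrial genome, and capitals mark bases identical to mouse mitochondrial DNA. Gm13341 met all 4 S9.6 lists, and Gm28439 met 3.
Gm13341, chr2:22587411-22587530: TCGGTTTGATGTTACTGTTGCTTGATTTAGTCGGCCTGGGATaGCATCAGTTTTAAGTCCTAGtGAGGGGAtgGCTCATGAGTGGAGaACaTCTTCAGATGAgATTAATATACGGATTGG
Gm28439, chr1:24611553-24611672: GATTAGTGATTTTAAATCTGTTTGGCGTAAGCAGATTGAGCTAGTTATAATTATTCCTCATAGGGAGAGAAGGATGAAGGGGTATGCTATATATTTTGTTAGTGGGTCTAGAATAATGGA

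Promoters of protein-coding genes made up most of the peaks that met all 4 lists, and capitals mark CG dinucleotides in 2 of them.
Rnf126 promoter, chr10:79767438-79767557: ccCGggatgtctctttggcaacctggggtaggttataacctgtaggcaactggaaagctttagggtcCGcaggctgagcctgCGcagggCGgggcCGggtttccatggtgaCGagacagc
Carm1 promoter, chr9:21546354-21546473: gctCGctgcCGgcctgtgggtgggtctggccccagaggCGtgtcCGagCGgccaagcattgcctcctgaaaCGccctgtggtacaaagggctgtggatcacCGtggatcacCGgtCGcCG

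The last 3 are the strongest peaks by q that met no S9.6 list, and capitals mark runs of alternating A and C, written as GT when the run is on the other strand. The window at Glt1d1 holds no such run.
Egfl6 intron, chrX:166546271-166546390: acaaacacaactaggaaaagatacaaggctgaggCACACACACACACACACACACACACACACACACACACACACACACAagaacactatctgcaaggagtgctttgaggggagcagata
Sipa1l1 intron, chr12:82223076-82223195: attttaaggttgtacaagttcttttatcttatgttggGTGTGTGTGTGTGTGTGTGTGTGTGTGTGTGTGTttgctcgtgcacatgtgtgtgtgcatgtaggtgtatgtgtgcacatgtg
Glt1d1 intron, chr5:127705896-127706015: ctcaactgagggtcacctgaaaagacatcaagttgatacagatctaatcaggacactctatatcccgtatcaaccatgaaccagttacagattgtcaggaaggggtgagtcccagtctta

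The no-antibody library was much shallower than the others. The number of fragments at each summit and the local background were recovered from the deposited fold and p. The lowest background was 0.191 fragments in the no-antibody library and 1.31 to 1.67 in the S9.6 libraries, 6.82 to 8.74 times as much. A no-antibody peak needed at least 3 fragments at its summit and an S9.6 peak at least 6 or 7. To set libraries side by side, each summit was divided by the lowest background of its own library, and this depth-scaled value is called height below. The lowest height in the no-antibody list was 15.7, against 4.15 to 4.59 in the S9.6 lists, so a site could enter the S9.6 lists at a height at which the no-antibody list could not show it. Height ratios of S9.6 to no antibody are given below only at no-antibody peaks, and this floor holds them down. Of the no-antibody peaks 50.5% (49.0 to 52.0) rested on 3 fragments, and 378 of 4314 (8.76%) had a q of 0.05 or lower.

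Of the no-antibody peaks 214 (4.96%, 4.35 to 5.65) met at least 1 S9.6 list. WT peaks met 80 of them, KO peaks 110, shControl peaks 101 and shDdx5 peaks 125. These counts depend on list length, as the lists held 6481, 9605, 12259 and 11768 peaks. Of the peaks in each S9.6 list, 1.23% (0.993 to 1.53), 1.15% (0.951 to 1.38), 0.832% (0.686 to 1.01) and 1.06% (0.892 to 1.26) met a no-antibody peak. By this share WT was the highest and shControl the lowest, with overlapping intervals. Of the 118 peaks that met 1 list, 15 met WT, 33 KO, 31 shControl and 39 shDdx5. Among the 22 that met 3 lists the missing list was shControl for 11, WT for 6, shDdx5 for 3 and KO for 2. Which list was missing among all S9.6 regions found in 3 lists was not counted, so these numbers have no baseline. Where all 4 lists were met, the median distance between summits was 80.5 bp for WT, 130 bp for KO, 98 bp for shControl and 120 bp for shDdx5. Of those 42 peaks 26, 17, 21 and 20 had their summit within 100 bp of the S9.6 summit, in the same order.

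The peaks that met an S9.6 list lay at gene starts far more often than the rest. A midpoint within 1 kb of an annotated start was counted as a promoter, and 363 of all 4314 no-antibody peaks (8.41%) were at one. In the group with no list 265 peaks (6.46%, 5.75 to 7.26) were at a promoter. The share was 28.8% (21.4 to 37.6) with 1 list, 56.2% (39.3 to 71.8) with 2, 81.8% (61.5 to 92.7) with 3 and 66.7% (51.6 to 79.0) with 4. Over the 214 peaks with at least 1 list it was 45.8% (39.3 to 52.5), and the difference from the group with none was 39.3 percentage points (32.7 to 46.1). The groups with 3 and 4 lists could not be told apart, their difference being -15.2 points (-33.8 to 8.62). S9.6 peaks were themselves often at promoters (37.1, 36.2, 27.2 and 43.0%), so a peak that meets an S9.6 list is drawn from places with many promoters. With the 4 S9.6 lists merged where peaks overlapped, promoters held 5539 of the 27204 regions found in 1 list. They held 1541 of 2879 in 2 lists, 899 of 1228 in 3 and 731 of 850 in 4. A rise of the promoter share with the number of lists was thus also a property of the S9.6 regions themselves.

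**Figure D1:**
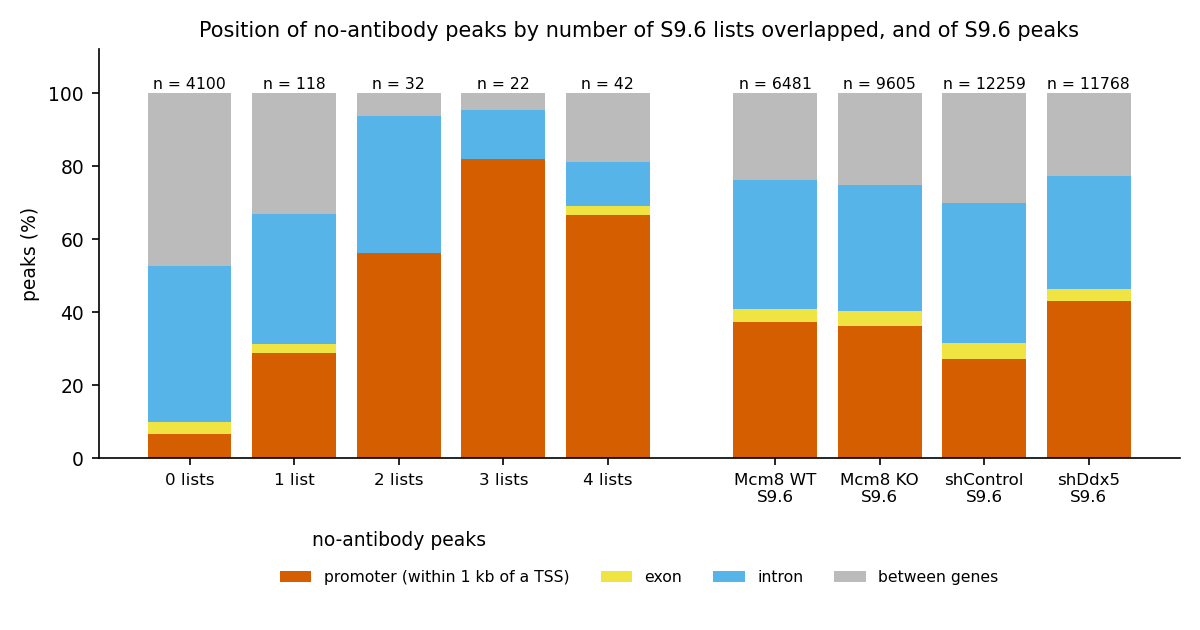
Stacked bars give the percent of peaks at promoters (midpoint within 1 kb of a transcription start site, TSS), in exons, in introns and between genes, for no-antibody peaks by the number of S9.6 lists met and for each S9.6 list. The promoter part grows from 6.46% with no list to 81.8% with 3 lists and is 66.7% with 4.

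Most promoters in the groups with several lists belonged to protein-coding genes, with such a start within 1 kb for 25 of the 28 promoter peaks that met 4 lists and 15 of the 18 that met 3. Among the 265 promoter peaks that met no list 175 had one. Away from promoters the group with no list lay in introns (42.7%, 41.2 to 44.3) and between genes (47.3%, 45.8 to 48.9), with 3.46% in exons. Between genes lay 23.4% (18.2 to 29.5) of the peaks with at least 1 list, 24.0 points fewer (17.7 to 29.4). The median distance from a start fell from 15354 bp with no list to 6469 bp with 1, 526 bp with 2, 192 bp with 3 and 418 bp with 4.

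Base composition moved with the number of lists. The median G+C content was 43.7% with no list, 49.2% with 1, 55.7% with 2, 58.1% with 3 and 59.8% with 4, and the S9.6 lists had 50.4 to 53.8%. CG dinucleotides per 100 bases had a median of 0.673 with no list and 1.06, 2.25, 4.58 and 5.0 with 1 to 4 lists. Promoter peaks differed in the same way, with 1.12 CG per 100 bases in the 265 that met no list and 6.1 in the 98 that met at least 1, against 5.98 to 7.14 in promoter peaks of the S9.6 lists. Outside promoters the medians were 0.656 and 0.844. The promoters that the 2 kinds of library shared were CG-rich, as the S9.6 promoter peaks from which they are drawn were in general. Those in the no-antibody list alone were poor in CG.

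Runs of alternating A and C were common in the no-antibody list and rare in the S9.6 lists. A run was counted where 10 or more units of AC stood in a row (ACACACACACACACACACAC, or the same starting with C, or its complement of GT and TG units). Dinucleotide repeats of this kind are among the most frequent simple repeats of mammalian genomes. They stood in 31.8% (30.3 to 33.2) of the 4100 peaks that met no list, in 21.2% with 1 list, 18.8% with 2, 0 of 22 with 3 (Wilson upper limit 14.9%, or 13.6% as 3 counts), and 2.38% with 4. The S9.6 lists had them in 2.48, 2.45, 3.44 and 3.24% of peaks. Windows of 364 bases, the median length of a no-antibody peak, tiled over the genome held them in 3.54%. The 214 peaks with at least 1 list had 15.0% (10.8 to 20.3), which was 16.8 points lower (11.2 to 21.2) than the group with none. A peak that meets an S9.6 list is drawn from places where these runs were rare.

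The difference from the S9.6 lists was seen outside promoters and at them. Outside, 32.4% (30.9 to 33.9) of the 3835 peaks with no list held an AC run, against 3.26 to 4.82% of S9.6 peaks outside promoters. At promoters the peaks with no list had 22.3% (17.7 to 27.6), against 0.956 to 1.26% in the S9.6 lists. Runs of AG units were also more frequent, at 7.76% (6.98 to 8.61) with no list, 0.255 to 0.344% in the S9.6 lists and 1.6% of genome windows. AT units (1.2% with no list, 0.52% of windows) and A alone (0.488% and 0.936%) were rare in every list. The summit was usually beside the run and not in it, at a median of 144 bp in the group with no list, where 22.1% (19.9 to 24.5) of summits lay within 50 bp of the run. In S9.6 peaks with a run the median was 99, 88, 73 and 98 bp, and 30.4, 34.0, 38.9 and 31.8% lay within 50 bp. The S9.6 peaks were also shorter, with median lengths of 328, 322, 292 and 358 bp against 363 bp with no list. These motifs were searched after the sequences had been seen.

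**Figure D2:**
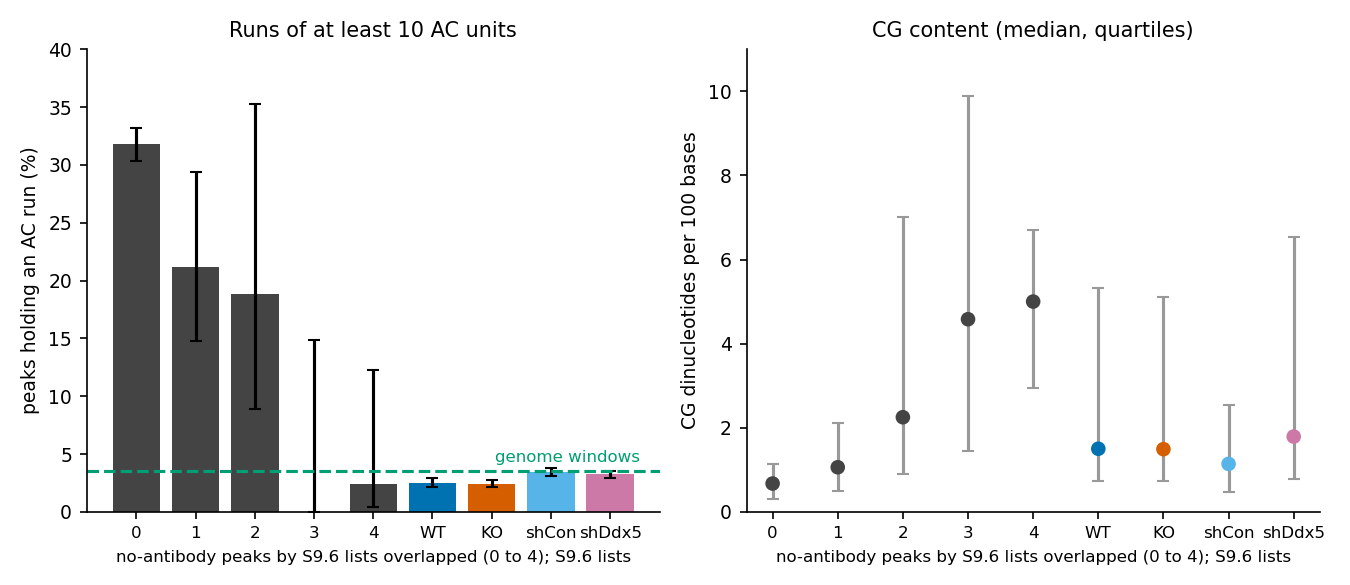
The left panel gives the percent of peaks that hold a run of at least 10 AC units with 95% Wilson intervals, for no-antibody peaks by the number of S9.6 lists met (0 to 4) and for the S9.6 lists, with a dashed line at the 3.54% of genome windows. The right panel gives the median number of CG dinucleotides per 100 bases with quartiles, which rises from 0.673 with no list to 5.0 with 4.

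Strength and overlap were related at the top of the list. Among peaks with 3 fragments at the summit 3.85% (3.12 to 4.75) met an S9.6 list, with 4 fragments 4.72%, with 5 fragments 8.14%, with 6 to 7 fragments 5.97% and with 8 to 9 fragments 5.26%. Of the 14 peaks with 10 or more fragments 13 did (92.9%, 68.5 to 98.7), and 10 of them met all 4 lists. Of the shared peaks 18.7% (14.0 to 24.4) had a q of 0.05 or less, and so had 8.24% (7.44 to 9.13) of the rest, 10.4 points apart (5.71 to 16.3). In the groups with 1 and 2 lists the share was 9.32% and 9.38%, near the 8.76% of the whole list, and it was 36.4% (19.7 to 57.0) with 3 and 42.9% (29.1 to 57.8) with 4.

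The AC runs went the other way. Among peaks that met no list 25.5% (23.7 to 27.4) of those with 3 fragments held a run, 32.4% with 4, 47.0% with 5, 73.0% with 6 to 7 and 68.4% (46.0 to 84.6) with 8 or more. Of the 338 with a q of 0.05 or lower 63.6% (58.4 to 68.6) held a run, and so did 17 of the 20 strongest. Among the 14 peaks with 8 or more fragments that met an S9.6 list none did (Wilson upper limit 21.5%, or 21.4% as 3 counts). Most of these 14 resembled ribosomal RNA genes or the mitochondrial genome, as described below.

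**Figure D3:**
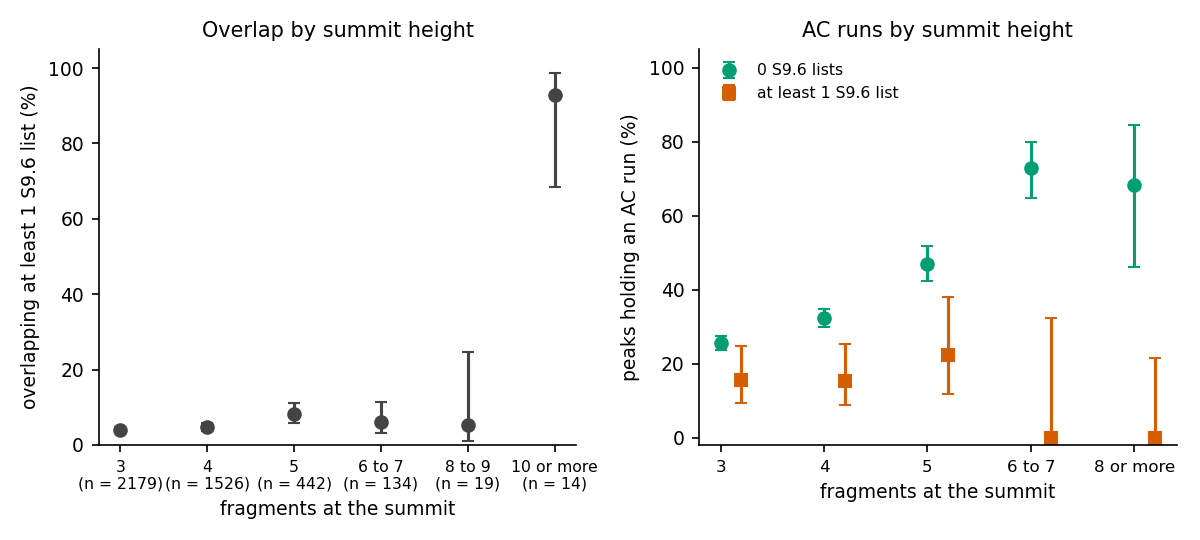
Points give percents with 95% Wilson intervals by the number of fragments at the summit of a no-antibody peak. On the left, the share that met at least 1 S9.6 list stays at 3.85 to 8.14% up to 9 fragments and is 92.9% from 10 on, and on the right the share with an AC run grows to 73.0% at 6 to 7 fragments in peaks that met no list (circles) and is 0 from 6 fragments on in peaks that met at least 1 (squares).

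The peaks with the highest counts resembled ribosomal RNA genes, which are present in many copies and are transcribed by RNA polymerase I. Of the no-antibody peaks 5 matched human ribosomal DNA at 80% identity or more over at least 100 bp, and all 5 were among the 42 that met every S9.6 list. The S9.6 lists held 10, 10, 11 and 10 such peaks, and 5 in each met a no-antibody peak. The strongest peak by fragments lay over the lincRNA gene Gm26917 (chr17:39843376-39846661), whose sequence matched the small-subunit rRNA gene at 93.1% identity over 335 bp. It had 87 fragments without antibody and 1614, 1710, 895 and 1472 with S9.6. On the height scale these were 454 (364 to 560) without antibody and 1058, 1309, 619 and 880 with S9.6. The S9.6 heights were higher in each list, at 2.33 (1.88 to 2.92), 2.88 (2.32 to 3.62), 1.36 (1.09 to 1.72) and 1.94 times (1.56 to 2.43) the no-antibody height.

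The neighbouring peak over CT010467.1, annotated as an rRNA gene (chr17:39847580-39848703, 95.6% identity over 653 bp), had 64 fragments without antibody and 1009, 888, 543 and 894 with S9.6. Its height with S9.6 was 1.98 times (1.54 to 2.59) that without in WT and 1.12 times (0.866 to 1.48) in shControl, where the interval includes 1. The chromosome 11 site shown above (chr11:109011646-109012151), 4248 bp from the start of Gm11668 and in no annotated gene, matched the large-subunit rRNA gene at 92.9% over 491 bp. It had 41 fragments without antibody and 704, 743, 443 and 621 with S9.6. By q it led the no-antibody list, with a −log10 q of 35.7 and a fold of 17.2. Its height with S9.6 was 1.43 times (1.04 to 2.02) in shControl to 2.66 times (1.94 to 3.73) in KO that without antibody.

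An exon of Lars2, which encodes the mitochondrial leucyl-tRNA synthetase, carried a stretch with 98.7% identity to the large-subunit rRNA gene over 396 bp (chr9:123461792-123462215). It had 17 fragments without antibody and 246, 309, 149 and 256 with S9.6. The fifth of these peaks (chr3:62159051-62159490, 84.0% over 444 bp, 36064 bp from the nearest start, of Gm37404) was low, with 6 fragments without antibody and 23, 20, 13 and 21 with S9.6. At that site the S9.6 heights were below the no-antibody height, at 0.287 times (0.102 to 0.92) in shControl and 0.401 to 0.489 in the others, whose intervals include 1. At the other 4 sites the heights stood in the same order, with KO the highest, then WT, shDdx5 and shControl, and no antibody the lowest. The intervals of the ratio of shControl to no antibody included 1 at CT010467.1 and at Lars2. Intervals of the height also overlapped between KO (636 to 726) and WT (621 to 704) at CT010467.1. At Lars2 they overlapped between WT (142 to 183) and shDdx5 (135 to 173). These sites resemble parts of the same multi-copy genes, so they may not be separate observations.

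No-antibody peaks that resembled the mitochondrial genome were mostly lower with S9.6 where both had a peak. The floor of 15.7 on the no-antibody height holds such ratios down. Nuclear copies of mitochondrial DNA are known from all mammals, and fragments of the many mitochondrial genomes in a cell can be placed on them. Of the no-antibody peaks 5 matched, 1 in the group with 4 lists, 2 with 3, 1 with 1 and 1 with none. The S9.6 lists held 5, 4, 2 and 4 such peaks, of which 4, 3, 1 and 3 met a no-antibody peak. Gm13341, a pseudogene (chr2:22587288-22588053, 96.4% over 778 bp), had 19 fragments without antibody and 29, 16, 8 and 34 with S9.6. Its height was 99.2 (59.7 to 155) without antibody and 19.0, 12.2, 5.53 and 20.3 with S9.6. The S9.6 heights were thus 0.192 (0.104 to 0.362), 0.123 (0.0594 to 0.253), 0.0557 (0.0211 to 0.133) and 0.205 times (0.114 to 0.38) that without antibody.

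Gm28439 (chr1:24611535-24612264) was identical to mitochondrial DNA over 730 bp, so fragments from either place could not be told apart there. It had 12 fragments without antibody, 16 in WT, 12 in KO, 20 in shDdx5 and no peak in shControl, which gave S9.6 heights of 0.147 to 0.191 times that without antibody. Its neighbour Gm29216 (chr1:24615555-24616275, 99.8% over 634 bp) had 10 fragments without antibody and 13 in WT, and no peak in the other 3 lists. Gm4076 (chr13:85126562-85127286, 95.2% over 726 bp) had 8 fragments without antibody, 10 in WT, 9 in KO and 28 in shDdx5, where the ratio of 0.401 (0.178 to 1.02) includes 1. Gm11410 met all 4 S9.6 lists at heights of 6.91 to 16.7 and had no no-antibody peak. The match that met no list was Gm11407 (chr4:80002330-80003038, 92.9% over 709 bp), with 5 fragments. No peak of any MEF list lay on the mitochondrial sequence itself. How far mitochondrial DNA content differed between the libraries was not tested.

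Exact repeats gave no single order between the shared peaks and the rest. A peak was called repeated when at least 50% of its 31-base words occurred more than once in mm10. This was so for 138 of 4314 no-antibody peaks (3.2%), for 3.27% (1.59 to 6.6) of those with at least 1 list and for 3.2% (2.7 to 3.78) of those with none. The S9.6 lists had 0.427 to 1.08%. With the bar at 10% of words, the shares were 14.0% (10.0 to 19.3) and 21.1% (19.9 to 22.3), lower in the shared peaks by 7.05 points (1.63 to 11.3). At that bar the peaks with 4 lists had 26.2% and those with 1 list 10.2%, 16 points apart (3.2 to 31.5). Among no-antibody peaks with a q of 0.05 or less, the share at the 50% bar was 10.0% (3.96 to 23.1) in the 40 shared peaks and 2.07% (1.01 to 4.21) in the other 338. With a fold of at least 4 in every list it was 6.82% (2.35 to 18.2) and 2.31% (1.56 to 3.41). Such words were found at Gm28439 (100% of words) and Lars2 (58.4%), whereas Gm26917 and CT010467.1 had 3.5% and 11.3%. Words were counted in mm10 only, so ribosomal copies absent from that assembly were not counted. A low share at these rRNA-like sites therefore does not show that their sequence is unique.

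A further 11 of the 42 peaks lay outside promoters and matched neither sequence, and some of them were tall. In an intron of Sfi1, which encodes a centrosome protein (chr11:3184367-3185610), there were 23 fragments without antibody and 122, 90, 139 and 163 with S9.6. In an intron of Aida (chr1:183299161-183299431) there were 15 fragments without antibody and 183, 154, 117 and 86 with S9.6. A site between genes, 20953 bp from the start of Gm5466 (chr2:181917583-181917969), had 13 fragments without antibody and 279, 219, 162 and 123 with S9.6. These 3 sites had heights of 120, 78.3 and 67.9 without antibody. At Sfi1 the S9.6 heights were 0.666 (0.424 to 1.09), 0.574 (0.36 to 0.95), 0.8 (0.512 to 1.3) and 0.811 times (0.522 to 1.32) that without antibody, with the KO interval wholly below 1. At Aida the interval of the height ratio included 1 in every S9.6 list, from 0.656 (0.377 to 1.22) in shDdx5 to 1.53 (0.905 to 2.79) in WT. At the chromosome 2 site the ratio was 2.69 (1.55 to 5.12), 2.47 (1.41 to 4.71), 1.65 (0.938 to 3.17) and 1.08 (0.61 to 2.09).

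An intron of Tmem267 (chr13:119597710-119598228) was lower with S9.6 in every list, with 14 fragments without antibody and 34, 20, 42 and 54 with S9.6, so that the S9.6 heights were 0.209 (0.101 to 0.448) to 0.441 (0.242 to 0.86) times that without. A site near Gm28502 (chr15:75085504-75086019), 94.8% of which is masked as repeat in the reference, had 10 fragments without antibody and 132, 133, 79 and 73 with S9.6. The other 6 of these 11 peaks had 3 to 6 fragments. Among them was a site near Gm18604 (chr17:36231253-36231600), with 6 fragments without antibody and 111, 132, 61 and 99 with S9.6. Its height ratio was 2.32 (1.03 to 6.47), 3.22 (1.44 to 8.95), 1.35 (0.584 to 3.81) and 1.89 (0.837 to 5.27), and the KO value was the highest ratio among the 42 peaks.

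The other 25 of the 42 peaks were promoters that matched neither sequence, and they were low in every library. They had 3 to 7 fragments without antibody (median 4) and medians of 17, 22, 16 and 30 with S9.6. At Relb, which encodes a subunit of NF-κB (chr7:19628553-19628908), there were 7 fragments without antibody and 24, 23, 22 and 31 with S9.6. At Rnf126, a ubiquitin ligase (chr10:79767193-79767869), there were 6 and 23, 30, 20 and 33. At Carm1, an arginine methyltransferase (chr9:21546262-21546803), there were 3 and 35, 37, 28 and 48. Other promoters of this kind belonged to Klf16, Csnk1g2, Garnl3, Mpc2, Mgat1, Usp5, Opa3, Prmt1, Ensa, Ipo5 and Rtn4. The median height ratio of S9.6 to no antibody over these 25 peaks was 0.628, 0.782, 0.53 and 0.916. A no-antibody peak cannot be listed below a height of 15.7, which holds these ratios down. The interval of the ratio lay wholly below 1 at 1 promoter in WT, 1 in KO and none in shControl and shDdx5, and at none did it lie above 1. Both intervals below 1 were at Ccdc191. At the other promoters, with these low counts, a difference in height between the 2 kinds of library was not detectable at this depth.

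**Figure D4:**
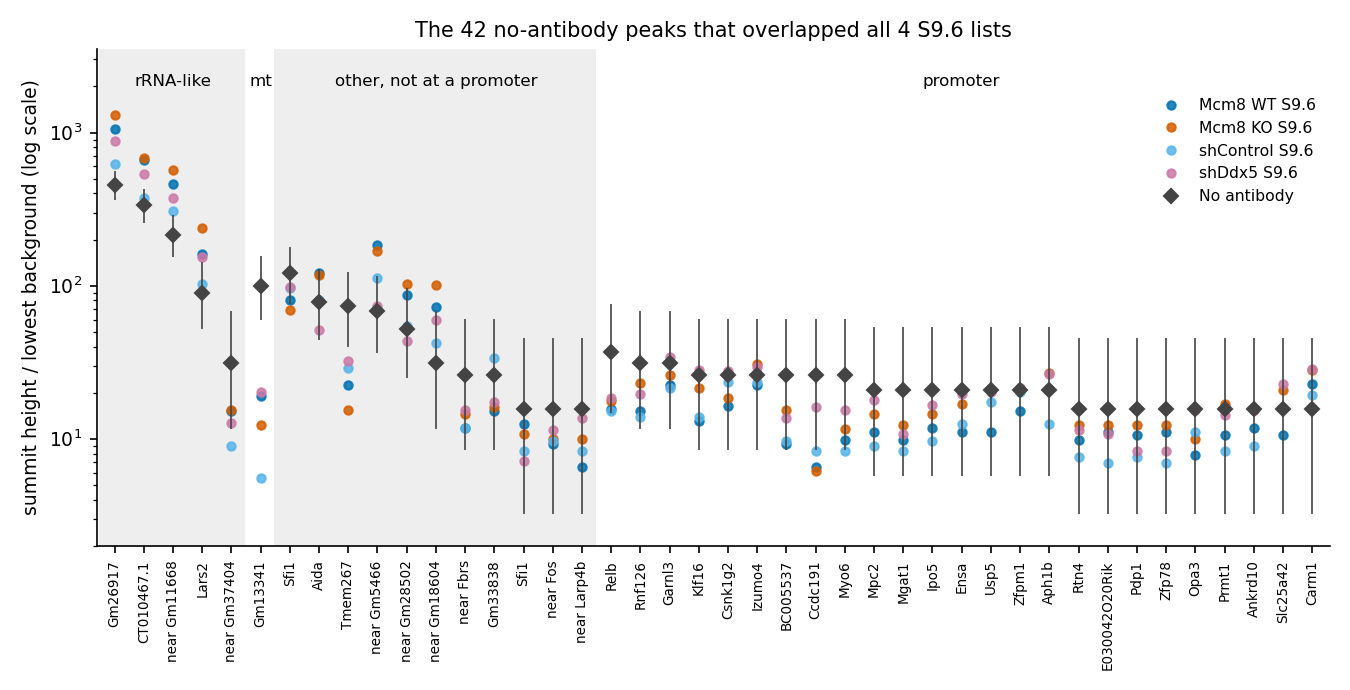
Each of the 42 no-antibody peaks that met all 4 S9.6 lists has a column, and the log axis gives the summit divided by the lowest background of its library, with diamonds and exact Poisson 95% intervals for no antibody and circles for the S9.6 libraries. S9.6 circles lie above the diamond at the tall rRNA-like sites, below it at the mitochondrial-like site Gm13341 (mt), and mostly within its interval at promoters.

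The strongest peaks of the middle groups by q were of the same kinds. With 3 lists they were Gm28439, the promoter of Cdon, a cell-surface receptor of hedgehog signalling (chr9:35421183-35421611, 7 fragments without antibody, 10 in WT, 13 in KO, 8 in shControl, no peak in shDdx5), and Gm4076. With 2 lists they were the promoters of Gm43645 (5 fragments without antibody, 17 in shControl and 13 in shDdx5), of Bcl7c (5, and 16 in KO and 9 in shDdx5) and of Micall1 (5, and 10 in KO and 17 in shDdx5). With 1 list they were a site 6198 bp from the start of Ptpn20 (5, and 7 in KO), Gm29216, and a site 16542 bp from the start of Stn1 (5, and 13 in KO). Outside Gm28439, Gm29216 and Gm4076 these peaks rested on 5 to 7 fragments.

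The 3 strongest peaks by q that met no S9.6 list had 9 fragments each and lay in introns. They were in Egfl6 (chrX:166545891-166546529, fold 7.36), Sipa1l1 (chr12:82222707-82223767, fold 7.22) and Glt1d1 (chr5:127705629-127706480, fold 6.89), 27643 to 49022 bp from the nearest start. Of the 20 strongest 9 were in introns, 9 between genes and 2 at promoters. Most peaks of this group were far from any S9.6 region, at a median of 33.2 kb (quartiles 10.2 and 128 kb), and 157 of 4100 (3.83%) lay within 1 kb of one. They were scattered along the chromosomes, with a median of 363 kb between neighbouring no-antibody peaks.

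Chromosome X held 111 no-antibody peaks, 0.679 per Mb of sequence, and the autosomes held 4201, 1.75 per Mb (1.25 to 2.18 among them). None of the 111 met an S9.6 list (Wilson upper limit 3.35%, or 2.7% if taken as 3 counts), while 5.05% (4.42 to 5.75) of the autosomal peaks did, a difference of 5.05 points (1.64 to 5.75). S9.6 peaks were also sparse on X, with 2.53 per Mb over the 4 lists against 16.6 on autosomes. Chromosome Y had 2 no-antibody peaks, and both met an S9.6 list.

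Genes with several no-antibody peaks were mostly long, and their number per kb was not compared. A total of 69 genes held 3 or more, with a median length of 604 kb (quartiles 343 and 1106 kb) against 17.4 kb for all protein-coding genes. The shortest were Flt4 (43.5 kb), AC060761.1 (59.2 kb), Rprd1b (104 kb) and Lrrc20 (107 kb), with 3 peaks each. Gm20388, annotated as a protein-coding gene of 4435 kb, held 13, and Auts2 held 7. Cntnap2, Dlg2 and Negr1, which encode adhesion and scaffold proteins of neurons, held 6 each. Of the 69 genes 10 (14.5%, 8.07 to 24.7) held a peak that met an S9.6 list, against 154 of the 2037 genes with any no-antibody peak (7.56%), and 1, Gm20388, held a peak that met all 4. Counted by peak, 12 of the 254 peaks in these genes met a list (4.72%, 2.72 to 8.07). The share was 146 of 2268 (6.44%, 5.5 to 7.52) for peaks in any gene and 4.96% for all no-antibody peaks. S9.6 peaks were few in most of these genes, with 1, 3, 3 and 2 in Auts2 and 0, 1, 0 and 0 in Cntnap2.

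From the S9.6 side the overlap was small. The 4 lists merged into 32161 regions, of which 218 (0.678%, 0.594 to 0.774) met a no-antibody peak. The share was 0.415% (0.346 to 0.499) of regions found in 1 list, 1.08% (0.76 to 1.52) in 2, 2.12% (1.45 to 3.08) in 3 and 5.65% (4.29 to 7.41) in 4. Over all regions it was 1.11% (0.914 to 1.36) at promoters and 0.516% (0.432 to 0.616) elsewhere. The order was not kept within each number of lists. With 1 list the 2 shares were 0.506% and 0.392%, with 2 lists 1.04% and 1.12%, and with 3 lists 2.11% and 2.13%. Among the 850 regions of all 4 lists it was 4.65% (3.35 to 6.43) at promoters and 11.8% (7.14 to 18.8) elsewhere. The share also moved with height, though not evenly. In WT 0.617% of peaks under a height of 8 met a no-antibody peak, 2.62% from 8 to 16, 14.3% (7.1 to 26.7) from 16 to 32, none of 8 from 32 to 64 and 56.2% (33.2 to 76.9) from 64 on. From 32 to 64 the KO list had none of 4, shControl had 3 of 8 and shDdx5 had 5 of 10. At 64 or more the share was 52.9% (31 to 73.8) in KO, 53.8% (29.1 to 76.8) in shControl and 54.5% (28 to 78.7) in shDdx5. Among S9.6 peaks as tall as the lowest no-antibody peak, which are the ones that the no-antibody list could show at equal height, 17 of 89 (19.1%, 12.3 to 28.5), 23 of 220 (10.5%, 7.07 to 15.2), 18 of 96 (18.8%, 12.2 to 27.7) and 30 of 237 (12.7%, 9.01 to 17.5) met one.

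**Figure D5:**
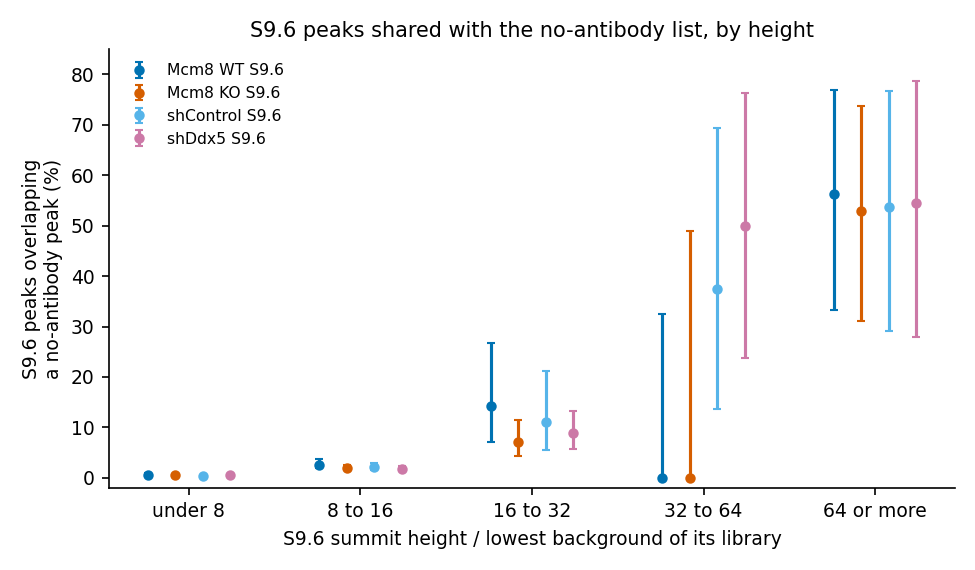
Points give the percent of S9.6 peaks that met a no-antibody peak, with 95% Wilson intervals, by the depth-scaled summit height of the S9.6 peak and by list. The share is 0.442 to 0.617% under a height of 8 and 52.9 to 56.2% at 64 or more.

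Tall S9.6 sites without a no-antibody peak were found as well. A height of 64 or more in all 4 lists was reached by 11 merged regions, and 6 of them met a no-antibody peak. The 5 that did not were an rRNA-like site at Zc3h7a (heights of 96.1 to 142 with S9.6), a site on chromosome 15 (chr15:75086677-75087038, 87.9 to 155) beyond the no-antibody peak near Gm28502, a pair of sites on chromosome 11 that reach into Drg1 (71.2 to 89.7 and 67.5 to 88.5), and an intron of Kctd16 (69.9 to 159). A summit of the same height in the no-antibody library would have held 13.4 to 30.5 fragments at Kctd16 and 18.4 to 27.1 at Zc3h7a, where 3 can suffice for a peak, and no peak was listed.

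Few genes of any kind had a no-antibody peak at a start. Of 21924 protein-coding genes 271 (1.24%, 1.1 to 1.39) had one within 1 kb of a start, against 11.3, 16, 14.7 and 23.1% with S9.6, so a short gene list with none says nothing about that list. Chchd7, Armc10 and Cdk4, example genes of the study, had no no-antibody peak, while the WT and shControl lists had a promoter peak at Chchd7 and the KO and shDdx5 lists at all 3. None of 10 fibroblast genes (Col1a1, Col1a2, Col3a1, Fn1, Vim, Thy1, Pdgfra, Pdgfrb, Twist1 and S100a4) had a no-antibody peak, and 2, 2, 2 and 3 had a promoter peak with S9.6, among them Vim in each list. None of 8 genes of endothelial, blood, epithelial and muscle cells had a promoter peak in any list, and 1 (Cdh5) had a no-antibody peak in its body. A peak at a promoter is not a measure of expression, so these counts do not identify the cells.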

How the data were processed

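CUT&Tag peaks were measured in 9 libraries, of which the 5 from MEFs were used and the 4 from HEK293 cells were not. Per the labels and methods, the authors trimmed the reads, aligned them to mm10 with Bowtie2 and called peaks with MACS2 (version 2.1.2 per the submitters' notes, another version in the methods) without the no-antibody library as input. The calling threshold and the treatment of duplicates are not given in the sources used here, and the highest p in the MEF lists was 0.000997. The deposited fold is the ratio of fragments at the summit to the local background after the same constant was added to both. It is therefore lower than the plain ratio, and more so in a shallow library. The authors' p and q were deposited as −log10 values. Fragments and background were recovered from the fold and p for 100% of peaks.

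Lists were intersected with a minimum of 1 bp. Genes were from GENCODE M21, and a promoter was a midpoint within 1 kb of a start. Repeats were counted with 31-base words over mm10. Peaks were aligned with blastn 2.17.0 to mouse mitochondrial DNA and, since an annotated mouse sequence was not used here, to human ribosomal DNA (at least 80% identity over 100 bp). Shares carry Wilson, their differences Newcombe and fragments exact Poisson 95% intervals, which cover counting error only, as fragments may be PCR copies. Steps were tested on simulated data.

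Loci named were the 10 peaks with the highest −log10 q that met 4 lists and the 3 highest in each other group, genes with 3 or more no-antibody peaks, and fixed gene lists. Other loci (the rRNA-like, mitochondrial-like and further promoter peaks and the tall S9.6 sites) were chosen after their values were seen. A fixed list of R-loop factor genes is not reported here. Members and lists were chosen with earlier results of these data known. The ribosomal match, the dinucleotide runs, the CG counts and 2 alternatives were added after the data were seen. Alternatives changed the overlap, the q and fold limits, the promoter width, the repeat measure and the lists used.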

Additional observations from a re-analysis of the deposited data

How the results depend on the processing

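Each result below came from 1 library per group, so depth limits every comparison: a no-antibody peak of 3 fragments cannot be listed below a height of 15.7. No paired analysis was possible because each group was 1 library. Of the values computed under alternatives 78 stayed within a set limit and 49 moved beyond it. For a share the limit was the counting interval of the main value, and for the number with all lists a fixed ratio. The 78 include 8 from taking all sequences of the lists, which could not move because no further sequences were present. The cause of the moves was not tested beyond what each alternative changes by construction. The share of promoters was higher in the peaks that met at least 1 list under each alternative run.

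The share of no-antibody peaks with at least 1 list (4.96%) was 2.9% when 50% of both peaks had to be in common, 8.6% within 1 kb, 3.5% with the summit inside the S9.6 peak, 3.36% with S9.6 peaks of q at most 0.05, 4.06% with a fold of at least 4, 3.34% with equal numbers of strongest S9.6 peaks and 10.6% with no-antibody peaks of q at most 0.05. The number with all 4 lists (42) was 18 with 50% in common, 17 with the fold limit and 18 with the no-antibody q limit.

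The promoter share with at least 1 list (45.8%) was 33.7% within 1 kb, 54.3% with the summit inside, 57.9% with the S9.6 q limit, 59.1% with the fold limit, 56.2% with equal numbers, 60.0% with the no-antibody q limit and 53.3% with promoters of 3 kb. With no list (6.46%) it was 5.33% with the no-antibody q limit, 16.6% with 3 kb and 4.27% with protein-coding genes. The share with a q of 0.05 or less (18.7%) was 13.7% within 1 kb, 25.5% with the S9.6 q limit, 70.5% with the fold limit, 25.7% with equal numbers, and 7.48% at a q of 0.01.

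The share of merged S9.6 regions with a no-antibody peak (0.678%) was 0.298% with 50% in common, 1.21% within 1 kb, 0.47% with the summit inside, 1.24% with the S9.6 q limit, 1.17% with equal numbers and 0.127% with the no-antibody q limit. The repeated share with at least 1 list (3.27%) and with none (3.2%) was 6.82% and 2.31% with the fold limit, 10.0% and 2.07% with the no-antibody q limit, and 14.0% and 21.1% with 10% of words. With the 31 bases at the summit it was 10.7% with no list, and without the rRNA-like and mitochondrial-like peaks 1.46% with at least 1. The order of these 2 shares thus turned with the measure.

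With S9.6 peaks as tall as the lowest no-antibody peak, an alternative chosen after seeing the data, 0.719% of no-antibody peaks met at least 1 list and 13 met all 4. The promoter shares were 67.7% and 7.99%, the q share 54.8% and the share of S9.6 regions 8.99%. Leaving out 1 S9.6 list at a time gave 4.06 to 4.61% with at least 1 list, 44 to 53 peaks with all remaining lists, promoter shares of 45.7 to 51.4% and 6.51 to 6.84%, q shares of 19.1 to 21.3%, S9.6 shares of 0.708 to 0.805%, and repeated shares of 2.51 to 4.0% and 3.17 to 3.23%.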
